A study of Mus musculus with 6 samples.

Results

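Neuregulin-ErbB and Lgi4-Adam22 signaling are among the main exchanges by which axons and peripheral glia control each other, and 10 genes of these pathways were read from RNA-Seq of mouse sympathetic chain cultures. They were taken by name from the count table: the ligands Nrg1 and Hbegf, the receptors Egfr, Erbb2 and Erbb3, the proteases Adam17 and Bace1, the pair Lgi4 and Adam22, and the adhesion receptor Adgrg6. All 10 are among the 20173 genes of the table. Of them, 9 reached at least 1 CPM (counts in each 1000000 of a library) in at least 3 libraries, while Nrg1 did not. These 9 were among the 12152 genes tested. The filter used library totals, and the CPM values given below are after normalization between libraries.

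The cultures came from 3-week-old male mice, 3 libraries from Slit2fl/fl animals, which carry floxed Slit2 alleles, and 3 from Slit2th animals, in which Cre driven by the promoter of Th, tyrosine hydroxylase, removes Slit2 from Th-expressing cells. RNA of sympathetic chain cells was read after a culture of 4 to 5 days, in a neural medium supplemented with B27, and no other treatment of either group is described. The material is not certain, since the study also speaks of ganglia, and describes the isolation of dorsal root neurons. The labels do not say whether libraries of a group came from separate animals or cultures, so the p-values measure only the spread between these libraries.

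In the peripheral nerve, neuregulin on the axon binds ErbB3 on the glial cell, and ErbB3, whose own kinase is weak, signals through ErbB2, which binds no ligand itself. Bace1 and Adam17 cut membrane-bound neuregulin, and Adam17 also releases Hbegf, a ligand of Egfr. Lgi4 is secreted by Schwann cells and satellite glia and acts through Adam22, while Adgrg6, also known as Gpr126, raises cAMP in Schwann cells and is needed for myelination.

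The libraries held between 1255939 and 3155406 counts, at which 3 counts, taken as the floor of detection, correspond to between 0.961 and 2.65 CPM (counting error only). Slit2 had 139, 85 and 77 counts in Slit2fl/fl and 17, 24 and 27 counts in Slit2th libraries. The label calls the cells neurons, yet Th had 0 counts in all 6 libraries, and the 15 sympathetic neuron markers read here summed to between 107 and 338 CPM, mostly Tubb3 and Stmn2. The 17 glia markers, S100b among them, summed to 6131 to 12620 CPM in Slit2fl/fl against 14670 to 21290 CPM in Slit2th. The genes are therefore described as those of a culture in which glia markers far exceed neuron markers, and in such bulk RNA fewer cells of a type and less RNA per cell cannot be told apart. Slit2fl/fl replicate 1 stood apart: it was the highest or the lowest of all 6 libraries for 57.9% of the 12152 tested genes, and for 6 of the 9 tested genes of the signaling set (Hbegf, Egfr, Erbb2, Erbb3, Lgi4 and Adgrg6). For these genes, and for the ratio and correlations that rest on it, values without it are given as well.

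Per kilobase of exon, which allows levels to be compared between genes, Lgi4, Hbegf and Erbb3 were the most abundant of the set and Nrg1 the least. Averaged over all 6 libraries, Lgi4 stood at 25.4 ± 11.04 CPM per kb (SD, n = 6), Hbegf at 22.7 ± 10.4 and Erbb3 at 22.6 ± 9.54 CPM per kb. Adgrg6 and Bace1 followed at 12.7 ± 4.36 and 12.7 ± 3.50 CPM per kb, and Adam17 at 9.45 ± 1.32 CPM per kb. These 6 genes overlapped with their neighbours in the order. Erbb2 (1.89 ± 1.28 CPM per kb) and Egfr (1.85 ± 0.855 CPM per kb) also overlapped with each other, and their highest libraries, at 4.43 and 3.14 CPM per kb, were below the lowest library of Adam17 at 7.28 CPM per kb. Adam22 stood at 0.445 ± 0.509 CPM per kb and reached 1.43 CPM per kb at most, above the lowest Egfr library at 0.537 CPM per kb. Nrg1 was at 0.0260 CPM per kb. The order near the top depended on the length used: with the longest transcript in place of all exons, Hbegf (37.9), Lgi4 (28.9) and Adgrg6 (24.0 CPM per kb) led, ahead of Erbb3 (22.6 CPM per kb).

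**Figure D1:**
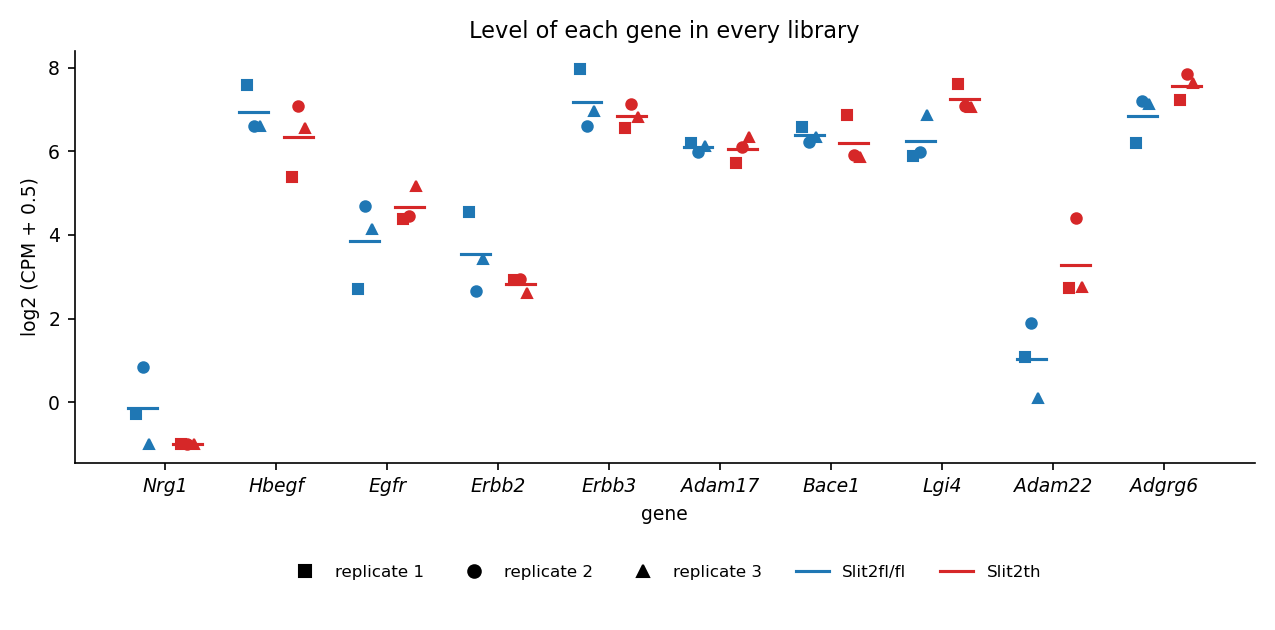
Normalized level of each of the 10 genes in every library, as log2 of CPM plus 0.5 (vertical axis), by gene (horizontal axis), with a point for each library, its shape giving the replicate number, and a bar for the group mean of the log2 values. The Slit2th libraries all lie above the Slit2fl/fl libraries for Lgi4, Adam22 and Adgrg6, and Slit2fl/fl replicate 1 lies apart from its group for Hbegf, Egfr, Erbb3 and Adgrg6.

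After adjustment over all genes, 0 of the 9 tested genes differed between the groups by edgeR's quasi-likelihood test, where 0% of all 12152 genes did. Before adjustment, Lgi4 and Adam22 (2 of the 9) had a p under 0.05, both higher in Slit2th, against 10.8% of all tested genes. DESeq2, edgeR's exact test and limma-voom with quality weights called 0 of the 9 as well after adjustment (DESeq2 gave Adam22 no adjusted p). Before it, they had 2, 1 and 3 of the 9 under 0.05, beside 1192, 1317 and 2266 of all 12152 genes. For 3 of the 9 genes (Lgi4, Adam22 and Adgrg6) all Slit2th libraries exceeded all Slit2fl/fl libraries, while 18.4% of all tested genes had groups that did not overlap in either direction. Of the 9 log2 fold changes, 4 were positive and 5 negative, with a median of -0.02 beside -0.05 over all tested genes.

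**Figure D2:**
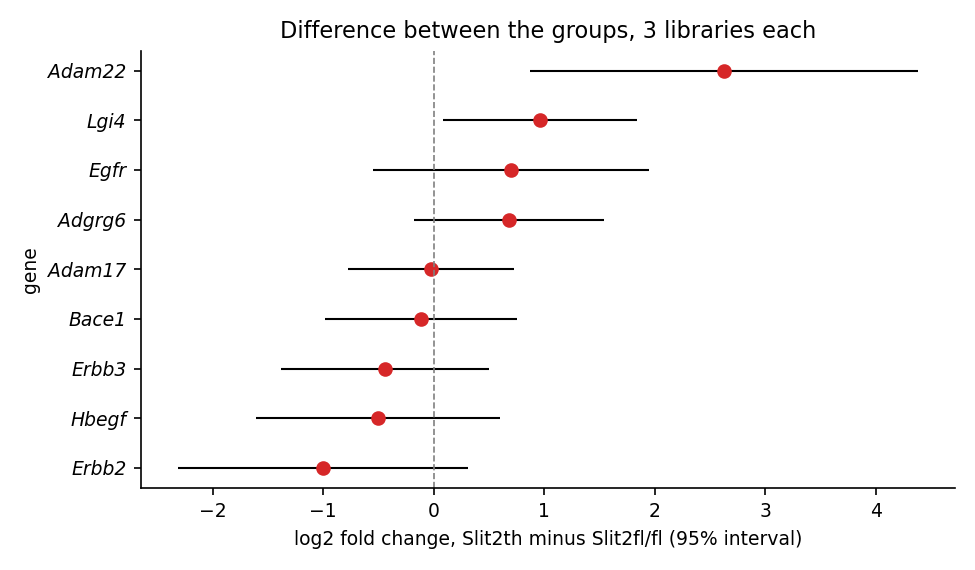
Log2 fold change of the 9 tested genes, Slit2th minus Slit2fl/fl (horizontal axis), with points for the estimate of edgeR's quasi-likelihood fit and lines for its 95% interval, 3 libraries per group. The intervals of Lgi4 (0.09 to 1.84) and Adam22 (0.87 to 4.38) lie above 0 before any adjustment for the number of genes, and the other 7 include 0.

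Nrg1, the axonal neuregulin (ENSMUSG00000062991, minus strand of chromosome 8, 31814551 to 32884029, GRCm38), was barely detected. It had 1, 2 and 0 counts in Slit2fl/fl replicates 1, 2 and 3 and 0 counts in each Slit2th library. Over the group, 0 of 4934927 counts in Slit2th allows a level of up to 0.608 CPM. Both groups were at or under the floor, so no fold change is given. The other neuregulins were as scarce, with 4 counts of Nrg2, 0 of Nrg3 and 3 of Nrg4 in all 6 libraries together, which makes 10 counts for the whole family.

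Hbegf, heparin-binding EGF-like growth factor (ENSMUSG00000024486, chromosome 18, minus strand, 36504927 to 36515805), was the ligand of the set that was well detected. It stood at 192, 97.2 and 96.7 CPM in Slit2fl/fl replicates 1 to 3 and at 41.5, 136.0 and 93.7 CPM in Slit2th replicates 1 to 3. The groups overlapped, with the highest value in Slit2fl/fl replicate 1 and the lowest in Slit2th replicate 1. The means were 128.6 ± 54.8 and 90.4 ± 47.3 CPM (SD, n = 3 each), which gave -0.51 as log2 fold change (standard error 0.49, 95% interval -1.61 to 0.60) with an adjusted p of 0.680 by edgeR's test. Without replicate 1 of both groups the log2 fold change was 0.23, the opposite sign, and without Slit2fl/fl replicate 1 alone it was -0.10.

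Among the ligands that bind Egfr, Hbegf was not the most abundant. The ligands of Egfr gave 6574 counts over the 6 libraries, of which betacellulin (Btc) gave 3958, Hbegf 1417 and Tgfa 1151. Per kb, Btc made up 57.6% to 82.3% of the summed level of these 7 ligands, and Hbegf 20.8% to 35.3% in Slit2fl/fl and 5.38% to 20.7% in Slit2th. Hbegf thus held a larger share in each Slit2fl/fl library than in any Slit2th library, although the margin between the nearest libraries was small.

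Erbb3, the neuregulin-binding receptor of glia (ENSMUSG00000018166, chromosome 10, minus strand, 128567523 to 128589652), was the leading ErbB receptor of every library. Its levels were 247.5, 97.2 and 124 CPM in Slit2fl/fl replicates 1 to 3 and 93.6, 139 and 112 CPM in Slit2th replicates 1 to 3. Slit2fl/fl replicate 1 was far above the other 5 libraries, which lay close together, and the groups overlapped. The means were 156 ± 80.2 and 115 ± 23.0 CPM (SD, n = 3 each), with a log2 fold change of -0.44 (standard error 0.42, 95% interval -1.39 to 0.50, adjusted p = 0.673, edgeR). Without Slit2fl/fl replicate 1 the log2 fold change was 0.06.

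Erbb2, the signaling partner of ErbB3 (ENSMUSG00000062312, chromosome 11, plus strand, 98412470 to 98437716), was found at 23.1, 5.83 and 10.2 CPM in Slit2fl/fl and at 7.06, 7.16 and 5.64 CPM in Slit2th libraries. Here too Slit2fl/fl replicate 1 was the highest, and replicate 2 of the same group lay within the narrow Slit2th range, so the groups overlapped. The log2 fold change was -1.0 (standard error 0.58, 95% interval -2.32 to 0.31, adjusted p = 0.529, edgeR). It was negative in all 17 alternative settings tried, between -1.45 and -0.28, the value closest to 0 without Slit2fl/fl replicate 1, and none passed the adjusted threshold.

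Egfr, the receptor for Hbegf (ENSMUSG00000020122, chromosome 11, plus strand, 16752203 to 16918158), went the other way in that library. It stood at 6.08, 25.3 and 17.1 CPM in Slit2fl/fl, and at 20.3, 21.5 and 35.6 CPM in Slit2th libraries. The lowest level was that of Slit2fl/fl replicate 1, but replicate 2 of that group exceeded both Slit2th replicates 1 and 2. The log2 fold change of 0.70 (standard error 0.55, 95% interval -0.55 to 1.95) had an adjusted p of 0.620 by edgeR's test and was positive in all 17 alternative settings, between 0.29 (without Slit2fl/fl replicate 1) and 1.26.

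The receptors can be compared within a library without any normalization between libraries. Per kb, Erbb3 made up 81.6% to 89.2% of the summed ErbB level, while Erbb4, the other neuregulin receptor, had 0 counts in all 6 libraries. Erbb3 exceeded Erbb2 by a factor of 9.30 to 17.2 per kb, and it exceeded Egfr by a factor of 76.6 in Slit2fl/fl replicate 1 and of 5.95 to 13.7 in the other 5 libraries. The share held by Erbb3 was thus steady, and the wide range against Egfr came from a single library. The log2 ratio of Egfr to Erbb3 counts was -3.36 ± 1.75 in Slit2fl/fl and -2.17 ± 0.52 in Slit2th (SD, n = 3 each), a difference of 1.19 (two-sided exact permutation test, p = 0.40, adjusted over 5 ratios 0.667). Most of it rested on Slit2fl/fl replicate 1, without which the difference was 0.213, and it was 2.16 without replicate 2 of both groups. That of Erbb2 to Erbb3 was -3.65 ± 0.30 and -4.04 ± 0.34, a difference of -0.39 (two-sided exact permutation test, p = 0.20, adjusted p = 0.667). With 3 libraries against 3, this test cannot give a p below 0.10.

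Across the 6 libraries, the Pearson correlation of the log2 CPM of Egfr with that of Erbb2 was -0.98 and with that of Erbb3 -0.86. The values without Slit2fl/fl replicate 1, over 5 libraries, were -0.88 and -0.20, so the inverse relation of Egfr and Erbb3 rested on that library. Libraries share depth and culture, and the correlations are descriptions only. Of 5576 genes with a mean of at least 20 CPM, those with the pattern most like Erbb3 were Med4 (r = 0.9995), Upf3a (r = 0.994) and Mmgt2 (r = 0.989), and 23 genes exceeded 0.95. For Egfr they were Clpx (r = 0.994), Stag2 (r = 0.990) and Ttc9c (r = 0.99), and 162 genes exceeded 0.95. Over the 5 libraries without Slit2fl/fl replicate 1 the same genes had r of 0.998, 0.975 and 0.987 with Erbb3 and of 0.998, 0.941 and 0.955 with Egfr.

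The protease genes varied least over the 6 libraries relative to their mean level. Adam17, also known as TACE (ENSMUSG00000052593, chromosome 12, minus strand, 21323509 to 21373632), stood at 72.4, 62.9 and 69.4 CPM in Slit2fl/fl, and at 52.1, 68.7 and 80.2 CPM in Slit2th libraries. The Slit2th libraries spread to both sides of the Slit2fl/fl libraries. Its log2 fold change was -0.02 (standard error 0.33, 95% interval -0.78 to 0.73, adjusted p = 0.980, edgeR). Bace1, the beta-secretase (ENSMUSG00000032086, chromosome 9, plus strand, 45838580 to 45864399), stood at 95.4, 74.5 and 80.7 CPM in Slit2fl/fl, and at 116, 59.2 and 57.6 CPM in Slit2th libraries. Slit2th replicate 1 was the highest and the other Slit2th libraries the lowest of the 6. Its log2 fold change was -0.12 (standard error 0.38, 95% interval -0.98 to 0.75, adjusted p = 0.912, edgeR). Both genes changed sign in 4 of 17 alternative settings, and the intervals still allow differences in either direction. Exons of Rnf214 overlap those of Bace1 on the other strand, and exons of Iah1 those of Adam17; since the strand setting of the counting is not given in the sources used here, reads of such partners cannot be told apart.

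In Slit2fl/fl replicates 1 to 3 the ratio of Adam17 to Bace1 counts was 0.758, 0.844 and 0.859, and in Slit2th it was 0.450, 1.16 and 1.39. Adam17 was the lower of the pair in all Slit2fl/fl libraries and the higher in Slit2th replicates 2 and 3, with Slit2th replicate 1 at the other end. The difference of the log2 ratios was 0.14 (two-sided exact permutation test, p = 1.0, adjusted p = 1.0). Bace1 was above Bace2 in mean level per kb. Adam10, another metalloprotease that cuts ErbB ligands, was set beside Adam17, Bace1, Adam9, Adam19 and Bace2. It made up 70.4% to 88.4% of the summed level per kb of these 6 proteases.

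Lgi4, Adam22 and Adgrg6 were the genes whose groups did not overlap. Lgi4, a secreted glial protein (ENSMUSG00000036560, chromosome 7, plus strand, 31059342 to 31070935), stood at 58.3, 62.9 and 116 CPM in Slit2fl/fl replicates 1 to 3 and at 193, 135.5 and 133 CPM in Slit2th replicates 1 to 3. The lowest Slit2th library was still above Slit2fl/fl replicate 3, itself well above its own group. The means were 79.0 ± 32.1 and 154 ± 34.0 CPM (SD, n = 3 each), and a two-sided exact permutation test gave p = 0.10. The log2 fold change was 0.96 (standard error 0.39, 95% interval 0.09 to 1.84), with an adjusted p of 0.447, and 0.0348 before adjustment, by edgeR's test, rank 942 of 12152 genes. It stayed positive in all 17 alternative settings, between 0.57 and 1.44, the smaller value without replicate 1 of both groups, and was 0.79 without Slit2fl/fl replicate 1. With a single library left out, its edgeR p before adjustment was 0.0167 to 0.110, and under 0.05 only without Slit2fl/fl replicate 3.

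Lgi4 accounted for 77% to 92.1% of the summed level per kb of the 4 Lgi genes in Slit2fl/fl and for 86.4% to 93.6% in Slit2th. It had the highest level of the 10 genes per kb in Slit2th (33.6 ± 7.43 CPM per kb) and the third highest in Slit2fl/fl (17.2 ± 6.997 CPM per kb, SD, n = 3 each). Exons of Fxyd3 overlap those of Lgi4 on the other strand, and Fxyd3 had 147, 4 and 21 counts in Slit2fl/fl and 7, 5 and 3 counts in Slit2th libraries, beside 182, 97 and 204 and then 219, 284 and 236 counts of Lgi4. The overlapping gene was thus highest in the library where Lgi4 in CPM was lowest. Whether reads were assigned between these genes was not tested.

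Adam22, the receptor for Lgi4 (ENSMUSG00000040537, chromosome 5, minus strand, 8072352 to 8368160), was found at a very low level. Counted reads numbered 5, 5 and 1 in Slit2fl/fl replicates 1 to 3 and 7, 43 and 11 in Slit2th replicates 1 to 3. In CPM these were 1.60, 3.24 and 0.569 in Slit2fl/fl against 6.18, 20.5 and 6.21 in Slit2th. All Slit2th libraries exceeded the Slit2fl/fl libraries (two-sided exact permutation test, p = 0.10), Slit2th replicate 2 by far the most, while Slit2fl/fl replicate 3 was under the floor of 3 counts. The log2 fold change of 2.63 (standard error 0.78, 95% interval 0.87 to 4.38) had an adjusted p of 0.422, and 0.00796 before adjustment, by edgeR's test, rank 198 of 12152 genes. In the 16 alternative settings that tested it, it lay between 1.79 and 3.2, and the smallest adjusted p by edgeR was 0.0784, without replicate 1 of both groups. The value of 1.79 was that without Slit2th replicate 2, where the edgeR p before adjustment was 0.0674.

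Since Lgi4 is a ligand and Adam22 its receptor, their ratio within a library was compared as well. Lgi4 counts exceeded Adam22 counts 36.4-fold, 19.4-fold and 204-fold in Slit2fl/fl against 31.3-fold, 6.61-fold and 21.5-fold in Slit2th, the value of 204-fold resting on 1 Adam22 count, under the floor of 3. The groups overlapped, with a difference of -1.45 in the log2 ratio (two-sided exact permutation test, p = 0.40, adjusted p = 0.667), which was -0.619 without Slit2fl/fl replicate 3 and -0.814 without Slit2th replicate 2. Of the 5 other Lgi and receptor genes, 3 were positive and 2 negative, with a median of 0.45. Of the other receptors of this family, Adam23 stood at 14.1, 21.4 and 11.9 CPM in Slit2fl/fl, and at 31.8, 23.9 and 24.3 CPM in Slit2th, again without overlap (log2 fold change 0.75, standard error 0.41, adjusted p = 0.509, edgeR). Adam11 had 100.5 CPM in Slit2fl/fl replicate 1, while it lay between 8.47 and 13.7 CPM in the other 5 libraries, a pattern set by that single library (log2 fold change -2.08, standard error 0.81, adjusted p = 0.431, edgeR). Without it the log2 fold change of Adam11 was -0.36 (standard error 0.39, adjusted p = 0.823, edgeR).

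Adgrg6 (ENSMUSG00000039116, chromosome 10, minus strand, 14402583 to 14545659) stood at 73.3, 146.5 and 139.9 CPM in Slit2fl/fl, and at 149, 228 and 198 CPM in Slit2th libraries. The groups did not overlap, but Slit2th replicate 1 lay only just above Slit2fl/fl replicate 2, and Slit2fl/fl replicate 1 was far below all others. The means were 119.9 ± 40.5 and 191.8 ± 39.8 CPM (SD, n = 3 each; two-sided exact permutation test, p = 0.10). The log2 fold change of 0.68 (standard error 0.38, 95% interval -0.18 to 1.54) had an adjusted p of 0.515, and 0.106 before adjustment, by edgeR's test. It was positive in all 17 alternative settings, between 0.42 (without Slit2fl/fl replicate 1) and 0.86, but with upper-quartile normalization its groups overlapped.

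Glia and other marker levels moved with the groups beside these 3 genes. The summed glia markers of every Slit2th library exceeded those of every Slit2fl/fl library, while Sox10, the transcription factor of peripheral glia, overlapped, at 698, 443 and 615 CPM in Slit2fl/fl against 633, 505 and 474 CPM in Slit2th. Of the 16 glia markers tested, 8 lay above 0 in log2 fold change and 8 below, and at an unadjusted p under 0.05, which 10.8% of all tested genes reached, 1 was lower and none higher. The 12 macrophage markers summed to 27.3 to 76.2 CPM in Slit2fl/fl against 109 to 597 CPM in Slit2th, the highest in Slit2th replicate 1, and 6 of the 10 tested were higher at an unadjusted p under 0.05, none of the 12 being at 0 in all libraries. Several of the 6 passed the filter only through Slit2th libraries, Mrc1 among them, with 0 counts in each Slit2fl/fl library. The filter favoured that direction for them, so nothing is read from this count. The fibroblast markers summed to 2672 to 3814 and 3798 to 5432 CPM with 3 of 10 tested higher at that p, and the proliferation markers to 339 to 414 and 145 to 273 CPM with 2 of 8 lower. The endothelial markers summed to 18.8 to 31.7 and 13.2 to 19.1 CPM, with 1 of 3 lower. The part of these cell types in the levels of Lgi4, Adam22 and Adgrg6 was not tested.

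Relative to other glial transcripts, a choice made after the data were seen, the 3 genes differed in what remained. Per 1000 counts of Sox10, Lgi4 stood at 83.5, 142 and 188.5 in Slit2fl/fl, and at 305, 268 and 281 in Slit2th. The groups stayed apart on that scale. Per 1000 counts of all glia markers, however, Lgi4 overlapped, at 9.51, 5.23 and 9.19 in Slit2fl/fl against 9.08, 9.24 and 7.86 in Slit2th. Adam22 remained without overlap on both scales, at 0.261, 0.270 and 0.0450 per 1000 counts of all glia markers in Slit2fl/fl and 0.290, 1.40 and 0.367 in Slit2th. The margin was small, 0.270 resting on 5 counts in Slit2fl/fl replicate 2 and 0.290 on 7 counts in Slit2th replicate 1. The share of all genes without overlap on these scales was not computed. Adgrg6 overlapped on both, for example at 105, 330 and 227 per 1000 counts of Sox10 in Slit2fl/fl and 236, 451 and 418 in Slit2th.

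**Figure D3:**
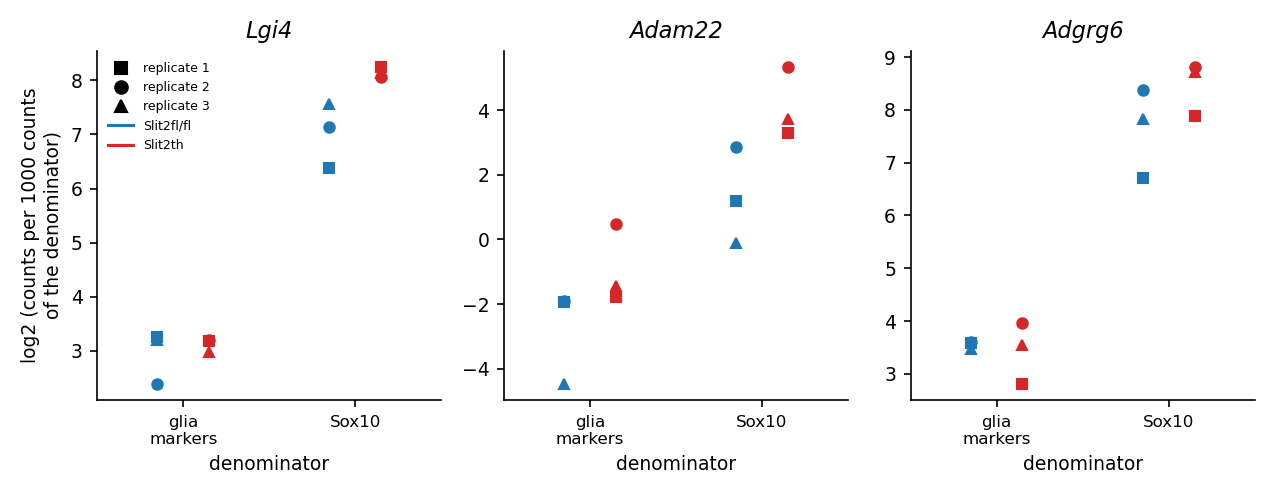
Levels of Lgi4, Adam22 and Adgrg6 in every library as log2 of counts per 1000 counts of the denominator (vertical axis), for all glia markers and for Sox10 (horizontal axis), with point shapes for the replicate number. The groups are apart on both scales for Adam22, overlap on both for Adgrg6, and overlap for Lgi4 with all glia markers as denominator.

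Promoter sequences of 5 of the 10 genes (Egfr, Erbb2, Adam17, Adam22 and Adgrg6) were matched in RefSeq on GRCm38.p6. Shown are those of Adam22 and Adgrg6, the genes among the 3 without overlap for which a sequence was at hand. Each run gives the 250 bases before the RefSeq start in the direction of the gene, on the minus strand, chr5:8368161-8368410 for Adam22 and chr10:14545037-14545286 for Adgrg6, the latter within the annotated span of the gene. Capitals mark matches, on either strand, to a SOX core (ACAAAG), a CRE half-site (TGACG), the letters read by CREB family factors downstream of cAMP, or a GC box (GGGCGG).
Adam22: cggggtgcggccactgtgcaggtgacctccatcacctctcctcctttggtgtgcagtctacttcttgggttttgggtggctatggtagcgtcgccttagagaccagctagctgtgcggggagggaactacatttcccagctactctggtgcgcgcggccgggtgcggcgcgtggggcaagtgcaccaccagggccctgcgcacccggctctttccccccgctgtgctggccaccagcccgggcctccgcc
Adgrg6: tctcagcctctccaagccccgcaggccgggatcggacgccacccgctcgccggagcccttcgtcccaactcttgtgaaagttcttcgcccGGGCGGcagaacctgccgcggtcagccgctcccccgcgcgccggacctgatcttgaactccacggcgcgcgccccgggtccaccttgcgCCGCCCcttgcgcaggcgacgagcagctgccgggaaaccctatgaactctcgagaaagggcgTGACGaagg
The Adgrg6 window held 2 GC boxes, at -160 and -71 from the start, and a CRE half-site at -9, and the Adam22 window held none of the 3 motifs. Over all 32851 promoters of the same length, 16.5% held the SOX core, 17.8% the CRE half-site and 32.7% the GC box. The GC content was 66.8% for Adam22 and 69.6% for Adgrg6, beside a median of 52.4%. A match describes the letters only.

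The other genes of the same pathways were read from 5 lists, 49 genes in all, of which 48 are in the table and 40 were tested. By edgeR's quasi-likelihood test 0 of the 40 passed after adjustment, and 7 had an unadjusted p under 0.05 (3 higher and 4 lower in Slit2th), beside 10.8% of all 12152 tested genes (485 higher and 824 lower). DESeq2 and edgeR's exact test called 0 as well. The limma-voom test with quality weights called Shc1 and Col4a2 (2 of the 40), beside 169 (1.39%) of all 12152 tested genes. For 14 of the 40 the groups did not overlap, 10 higher and 4 lower, beside 18.4% of all tested genes (1071 higher and 1166 lower), and the median log2 fold change was 0.10 beside -0.05 over all tested genes.

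Ligands of the EGF family were the list with the largest median, 1.23 over 3 tested genes of 9, and all 3 (Btc, Tgfa and Egf) had Slit2th libraries above Slit2fl/fl libraries throughout. Tgfa, a ligand of Egfr, stood at 27.9, 95.3 and 71.6 CPM in Slit2fl/fl, and at 115, 189 and 149.6 CPM in Slit2th, with a log2 fold change of 1.23 (standard error 0.47, adjusted p = 0.431, edgeR). Leaving out Slit2fl/fl replicate 1 gave a log2 fold change of 0.85 for Tgfa. Btc, the most abundant of these 3 ligands, stood at 308, 273 and 291 CPM in Slit2fl/fl, and at 593, 354.5 and 366 CPM in Slit2th (log2 fold change 0.59, standard error 0.34, adjusted p = 0.524, edgeR). Egf was near the floor in Slit2fl/fl, with 0, 1 and 3 counts beside 25, 4 and 6 in Slit2th, most of them in Slit2th replicate 1. It met the filter only through its Slit2th libraries, which favoured a positive sign, so its place among the 3 is not read as a result. Hbegf, with a log2 fold change of -0.51, thus stood on the other side of 0 from these ligands, and the difference between them was not tested.

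Receptor partners and feedback regulators were split, 10 positive and 5 negative of 15 tested, with a median of 0.50. Shc1, an adaptor that links ErbB receptors to Ras, stood at 77.5, 35.7 and 47.2 CPM in Slit2fl/fl, and at 22.1, 18.6 and 14.7 CPM in Slit2th. The groups were well apart, with a log2 fold change of -1.54 (standard error 0.43, adjusted p = 0.422, edgeR). Cbl, a ubiquitin ligase that takes activated Egfr down, had 0.91 as its log2 fold change (standard error 0.39, adjusted p = 0.459, edgeR) with overlap of the groups. Leaving out Slit2fl/fl replicate 1 gave log2 fold changes of -1.17 for Shc1 and 0.70 for Cbl. The most abundant genes of this list, Pik3r1 and Erbin, had log2 fold changes of 0.50 and 0.53. Without replicate 1 of both groups, the adjusted p by edgeR was 0.0449 for Shc1, 0.0457 for Cbl and 0.0315 for Tgfa, in a setting that called 3.29% of its 11473 tested genes. Without Slit2fl/fl replicate 1 alone, the adjusted p by edgeR was 0.656 for Shc1, 0.690 for Cbl and 0.656 for Tgfa.

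Among the other sheddases and their regulators, 2 of 9 tested were positive and 7 negative, with a median of -0.20. Adam10 (log2 fold change -0.02) and Timp3, an inhibitor of Adam17 (0.58), were the most abundant. Rhbdf1, which carries Adam17 out of the endoplasmic reticulum, stood at 32.7, 12.96 and 18.8 CPM in Slit2fl/fl and at 9.71, 9.07 and 6.77 CPM in Slit2th (log2 fold change -1.35, standard error 0.49, adjusted p = 0.423, edgeR). Its groups did not overlap, and its log2 fold change was -0.90 without Slit2fl/fl replicate 1. Adam17 itself had a log2 fold change of -0.02.

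For Adgrg6, the list held its ligands and the cAMP pathway, with 5 positive and 3 negative of 8 tested and a median of 0.12. Col4a2, a chain of collagen IV, to which Adgrg6 binds, stood at 252, 119.9 and 152 CPM in Slit2fl/fl, and at 49.4, 57.3 and 66.0 CPM in Slit2th. All Slit2th libraries were lower (log2 fold change -1.60, standard error 0.38, adjusted p = 0.422, edgeR), with an adjusted p of 0.0140 without replicate 1 of both groups and 0.0299 by limma-voom with quality weights. Without Slit2fl/fl replicate 1 alone, Col4a2 had a log2 fold change of -1.23 (adjusted p = 0.585, edgeR). Its partner chain Col4a1, outside the naming rule and chosen after its values were seen, had a log2 fold change of 0.34 with overlap of the groups. Prnp, the prion protein and another ligand of Adgrg6, stood at 194, 203 and 191 CPM in Slit2fl/fl, and at 470.4, 239.5 and 242 CPM in Slit2th, again apart (log2 fold change 0.69, adjusted p = 0.502, edgeR). Prkar1a, a regulatory subunit of the cAMP-dependent kinase, was even, with a log2 fold change of 0.05.

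**Figure D4:**
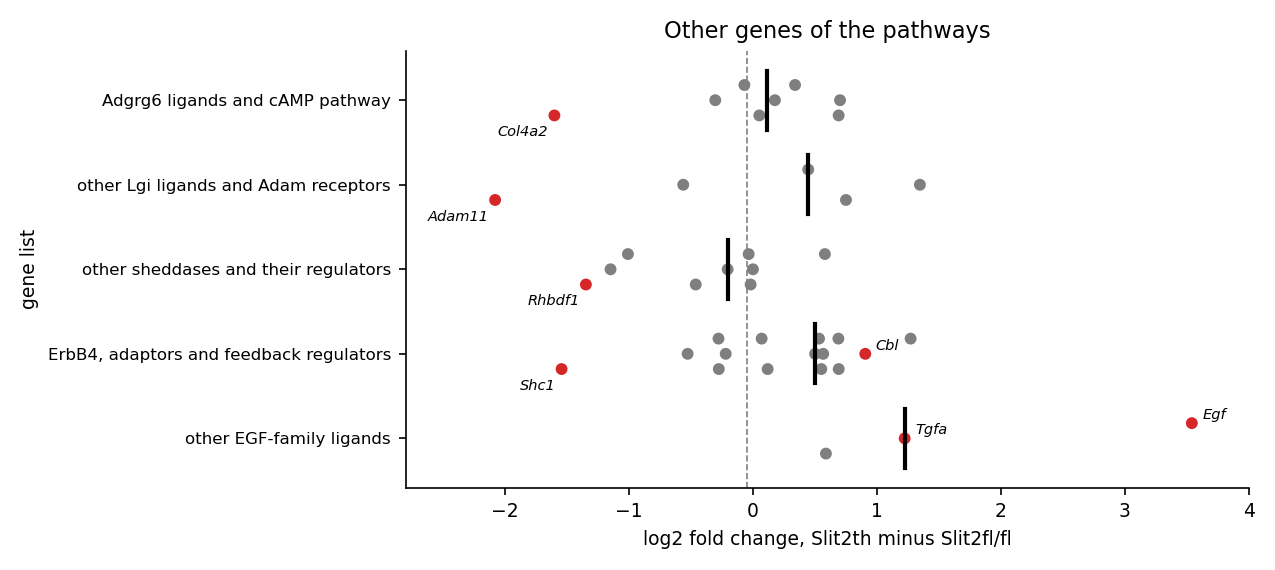
Log2 fold change of the 40 tested pathway genes outside the set, Slit2th minus Slit2fl/fl (horizontal axis), by list (vertical axis), with a point for each gene, named and in red at an unadjusted p under 0.05, a black bar for the list's median and a dashed line for the median of all tested genes. The 3 tested EGF-family ligands are all positive, with Egf near the floor in Slit2fl/fl, and Shc1, Rhbdf1, Adam11 and Col4a2 lie between -2.08 and -1.35.

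Directions were compared over 17 alternative settings (16 for Adam22). Egfr, Erbb2, Lgi4, Adam22 and Adgrg6 kept their sign in all of them, while Hbegf did so in all but 2, Erbb3 in all but 3, and Adam17 and Bace1 in all but 4. No gene of the set reached an adjusted p under 0.05 in any setting that gave it one, although the number of genes called in all ranged from 0 to 377.

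**Figure D5:**
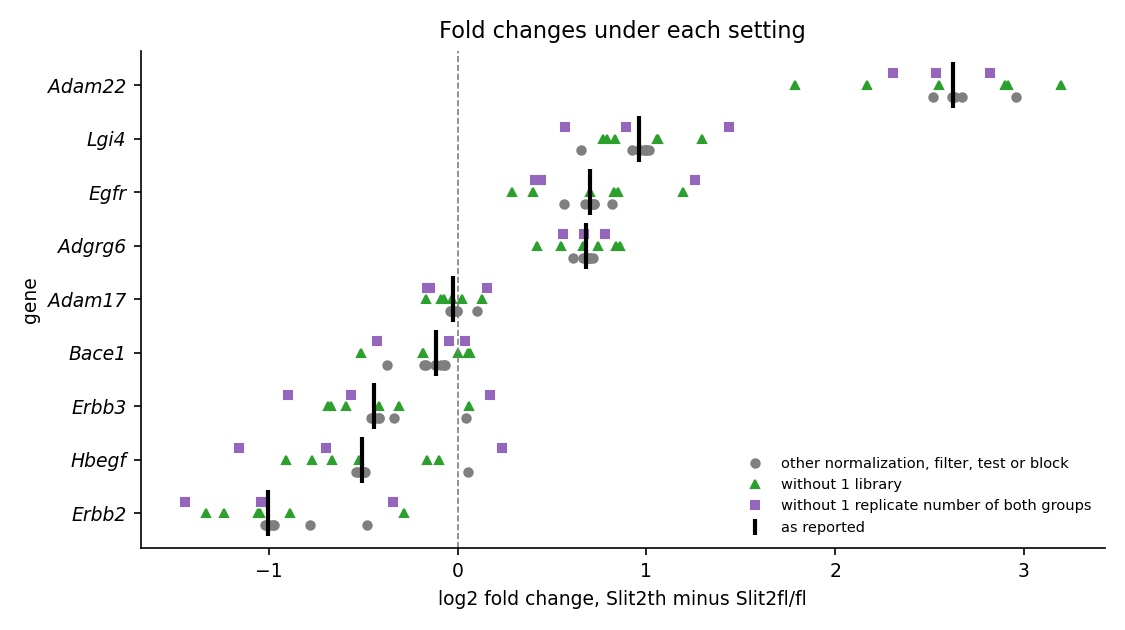
Log2 fold change of the 9 tested genes, Slit2th minus Slit2fl/fl (horizontal axis), by gene (vertical axis), as reported (black bars) and under each alternative setting (grey circles for other normalizations, filters, tests or the block, green triangles without a library, purple squares without a replicate number of both groups). Adam22 stays between 1.79 and 3.2 and Lgi4 between 0.57 and 1.44, and Hbegf, Erbb3, Adam17 and Bace1 cross 0.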

How the data were processed

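RNA-Seq was performed on 3 Slit2fl/fl and 3 Slit2th libraries. The authors aligned the reads with HISAT2 2.2.1 and deposited whole-number read counts per gene, not normalized. The submitters' processing notes name GRCm39 and the study's methods mm10, while the table holds no coordinates. The counting program, strand setting and annotation release are not given in the sources used here. Positions and exon lengths came from GENCODE M21 (GRCm38), in which 20159 of 20173 identifiers were found.

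Counts were analyzed in R 4.3.3 with edgeR 4.0.16. A filter kept genes reaching 1 CPM, before normalization, in 3 or more libraries. TMM normalization, glmQLFit and glmQLFTest without covariates followed, with Benjamini-Hochberg adjustment and a threshold of 0.05. The standard error is the size of the log2 fold change over the square root of F. Single genes and count ratios (0.5 added to each count) were tested by exact permutation (two-sided). Total counts were 1255939 to 3155406 per library.

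The genes, lists and tests were chosen with earlier results of these data known. Named were the 10 genes, Slit2 and Th, the 2 most abundant genes of each pathway and marker list, pathway genes with an unadjusted p under 0.05, markers at 0 counts, and the 3 genes most like Erbb3 and Egfr. Others named were chosen after their values were seen. Alternatives were other normalizations and filters, DESeq2 1.42.0, edgeR's exact test, limma-voom with sample quality weights (limma 3.58.1), the replicate number as a block, and libraries or replicate numbers left out. Denominators of glia markers, and correlations without Slit2fl/fl replicate 1 (those of the look-alike genes too), were added after seeing the data. Replicate numbers are shared between the groups in the labels, which state no pairing. Of the lists, 4 genes were not analysed here. Certain marker genes covered by this rule are not reported here.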

Additional observations from a re-analysis of the deposited data

How the results depend on the processing

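The number of genes called among all tested was 0 as reported, 7 with no filter on low counts, 31 with DESeq2, 16 with edgeR's exact test and 169 with limma-voom with quality weights (called limma-voom here), and 0 to 377 when libraries or replicate numbers were left out (1 without Slit2fl/fl replicate 1, 377 without replicate 1 of both groups). None of these calls was a gene of the set. Other pathway genes called were 0 as reported, 2 with limma-voom and 0 to 4 with libraries left out (4 without replicate 1 of both groups). At an unadjusted p under 0.05 there were 2 genes of the set, 1 with a CPM of at least 1 in all libraries (which drops Adam22), 1 with edgeR's exact test and 0 to 3 with libraries left out (0 without Slit2th replicate 2, 3 without replicate 1 of both groups, with Adgrg6). Over all genes there were 1309, and 2266 with limma-voom and 653 to 1999 with libraries left out. Groups without overlap were 3, with upper-quartile normalization 2, and 3 to 7 with libraries left out (5 without Slit2fl/fl replicate 2, 7 without replicate 2 of both groups, where fewer libraries must separate). The share of 18.4% over all tested genes holds for the reported setting, and none was computed with libraries left out. The counts of 5 and 7 therefore have no background beside them, and nothing is read from them. The planned Hbegf to Nrg1 ratio is void as a comparison, since Nrg1 had counts in only 2 of 6 libraries, and nothing is read from its log2 difference (0.38, -0.0572 with a pseudocount of 1, and -1.05 to 1.61 with libraries left out); that of Adam17 to Bace1 was -0.178 to 0.632. Reversed signs were found for Hbegf (0.055 with limma-voom), Erbb3 (0.046 with limma-voom) and Adam17 (0.10 with limma-voom), and leaving libraries out gave -1.16 to 0.23 for Hbegf, -0.90 to 0.17 for Erbb3, -0.17 to 0.16 for Adam17 and -0.51 to 0.065 for Bace1. The cause was not tested. With the longest transcript as length, levels per kb were 37.9 for Hbegf, 24.0 for Adgrg6 and 15.1 for Adam17. With the replicate block 0 genes were called and 1614 had an unadjusted p under 0.05, and Adam22 had a log2 fold change of 2.52 (adjusted p = 0.226, edgeR), while Adgrg6 joined the genes under 0.05 before adjustment, making 3, and no adjusted call changed. Same-numbered libraries deviated together with correlations of 0.256, 0.191 and 0.0583. Among differently numbered libraries across the groups, Slit2th replicate 3 and Slit2fl/fl replicate 2 had 0.205, and the rest had -0.266 to 0.0354. The labels state no pairing, and the numbers were not taken as pairs. Depth limits Nrg1 and Adam22 most, at 3 and 72 counts in all.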
